A study of Homo sapiens with 20 samples.

Results

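Amphiphysin, endophilin, syndapin and sorting nexin 9 genes were followed across 5 groups of IMR-32 libraries. The set held 10 genes of the 58787 in the deposited count table: the amphiphysin genes AMPH and BIN1, the endophilin genes SH3GL1, SH3GL2, SH3GL3 and SH3GLB1, the syndapin genes PACSIN1, PACSIN2 and PACSIN3, and SNX9. They were found by matching the table's Ensembl identifiers to these symbols, and each symbol matched 1 identifier. The filter on low counts left 13729 genes for testing, and 9 of the 10 were among them, PACSIN1 being too low.

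BAR domains are crescent-shaped dimers that bind curved membrane or bend it. In these proteins the domain is joined to an SH3 domain. In most of the members the SH3 domain binds the proline-rich tail of dynamin, the GTPase that pinches off clathrin-coated vesicles. In neurons amphiphysin and endophilin act at the synapse, where they bring dynamin and the lipid phosphatase synaptojanin to the necks of forming vesicles.

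IMR-32 is a human neuroblastoma line with an amplified MYCN gene, and all cells were of the genotype labelled WT, with brain as the labelled tissue and neuroblast as the labelled cell type. Cells were exposed for 24 h to prexasertib combined with Dyngo-4a, to 2 nM prexasertib alone, to Dyngo-4a alone at 1 µM or at 2.26 µM, or to the vehicle DMSO, with 4 libraries in each group and 20 in all. Prexasertib inhibits the checkpoint kinase CHK1, and Dyngo-4a was developed against dynamin, while the title of the series names CHK1 and MUS81 as the targets. The sample titles mark the 2.26 µM libraries as IC50, an inhibitory concentration. For the combination the labels state no dose. They give 1 batch number to all libraries and do not say whether replicates were separate cultures, so that each p-value reflects the spread among 20 libraries that may be technical.

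Libraries held 3960885 to 6537843 counts and 18122 to 19951 detected genes, so that a count of 0 allowed up to 0.757 CPM in the smallest library (3 counts; counting error only). Levels are given as CPM (counts divided by the TMM-scaled size of the library and brought to a common total). The library protocol reads 3′ ends, so counts were not divided by transcript length, and levels are compared between genes only as tags per library. Of the adrenergic neuroblast markers, GATA3 ran from 957 to 1295 CPM and HAND2 from 488 to 867 CPM over all libraries, while TH stayed at or below 3.27 CPM. PRRX1, SOX10 and CD3E, markers of mesenchymal, Schwann and T cells, had no count in any library. Within every group, replicates 1 and 3 lay apart from replicates 2 and 4 on the second principal component, and results are therefore also given within each of these pairs of replicates where they differ.

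Promoters of the 4 genes that passed the test in at least 1 comparison are shown so that the letters around their starts can be read beside their levels. Each runs from 250 bases before to 20 bases after a RefSeq transcription start on GRCh38.p14, in the gene's own direction, for AMPH chr7:38631354-38631623 (minus strand), for BIN1 chr2:127107135-127107404 (minus strand), for SH3GL2 chr9:17578816-17579085 (plus strand) and for the first of 2 starts of SH3GL3 chr15:83447091-83447360 (plus strand). Capitals mark the GC box GGGCGG, the CCAAT box CCAAT and the cAMP response element TGACGTCA, each searched on both strands.
AMPH: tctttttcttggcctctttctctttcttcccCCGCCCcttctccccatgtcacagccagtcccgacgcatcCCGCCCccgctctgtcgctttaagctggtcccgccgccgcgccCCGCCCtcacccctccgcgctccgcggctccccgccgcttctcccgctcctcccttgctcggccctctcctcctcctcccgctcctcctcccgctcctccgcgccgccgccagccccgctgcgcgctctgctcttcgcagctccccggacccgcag
BIN1: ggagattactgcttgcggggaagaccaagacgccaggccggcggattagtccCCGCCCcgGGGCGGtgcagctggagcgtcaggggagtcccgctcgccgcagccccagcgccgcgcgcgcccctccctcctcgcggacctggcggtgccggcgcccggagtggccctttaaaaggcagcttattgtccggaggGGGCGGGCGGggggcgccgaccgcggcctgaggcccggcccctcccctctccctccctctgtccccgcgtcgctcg
SH3GL2: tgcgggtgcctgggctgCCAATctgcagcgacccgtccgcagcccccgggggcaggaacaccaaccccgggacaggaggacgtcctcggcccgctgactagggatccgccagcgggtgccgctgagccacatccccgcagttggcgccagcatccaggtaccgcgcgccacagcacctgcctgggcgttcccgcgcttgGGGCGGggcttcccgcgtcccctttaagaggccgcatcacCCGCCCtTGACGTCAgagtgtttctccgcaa
SH3GL3: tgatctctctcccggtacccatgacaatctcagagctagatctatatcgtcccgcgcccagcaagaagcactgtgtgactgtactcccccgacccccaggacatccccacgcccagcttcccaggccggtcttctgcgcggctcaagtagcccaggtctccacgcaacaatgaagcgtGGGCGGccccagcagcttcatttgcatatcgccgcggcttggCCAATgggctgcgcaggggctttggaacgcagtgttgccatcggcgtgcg
All 4 windows were rich in G and C, from 61.9% in SH3GL3 to 75.6% in BIN1, against a median of 58.1% over 35116 RefSeq windows of this length. The GC box, held by 43.7% of all windows, was found 3 times in AMPH, 4 times in BIN1, of which the last 2 overlap by 2 bases, 2 times in SH3GL2 and 1 time in SH3GL3. CCAAT, held by 33.1% of all windows, was present in SH3GL2 and SH3GL3. The cAMP response element, in 1.83% of all windows, was found in SH3GL2 at position -4, the first base of the match counted from the start. The C/EBP-ATF response element TGATGNAA, in 3.37% of all windows, was not among the letters of these 4 windows. Of the 10 genes, 9 had an entry in the promoter table, and PACSIN3 had none.

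Both amphiphysin genes measured higher in all 4 libraries at the higher Dyngo-4a dose than in the other 16. BIN1 did not pass the test against 1 µM in the fit reported, and 2.26 µM was not tested against prexasertib. AMPH encodes the brain-enriched amphiphysin, which binds dynamin, clathrin and the AP-2 adaptor, and lies on the minus strand at chr7:38383704-38631567 (GRCh38, GENCODE 29). AMPH measured 31.2, 39.3, 39.5 and 35.8 CPM with 2.26 µM Dyngo-4a, against 21.3, 19.1, 26.0 and 18.3 CPM with DMSO. It measured 28.3, 25.7, 24.6 and 19.3 CPM with 1 µM Dyngo-4a. The combination gave 19.8, 17.2, 13.8 and 18.9 CPM, and prexasertib alone gave 21.1, 19.0, 18.2 and 15.5 CPM. All 4 libraries at 2.26 µM lay above the 16 other libraries, and the other 4 groups overlapped one another, with DMSO, prexasertib and the combination in the lower range. From high to low the group means followed the order 2.26 µM, 1 µM, DMSO, prexasertib and combination, and of these neighbours only the first pair had ranges that did not overlap. Ranges were apart for 23.3% of all tested genes between 2.26 µM and DMSO, for 21% between the doses, for 25% between 2.26 µM and prexasertib and for 20.7% between the combination and 2.26 µM.

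AMPH rose 1.72-fold at 2.26 µM over DMSO (log2 fold change 0.79 ± 0.15 SE, 95% interval 0.49 to 1.08, adjusted p = 0.0001, n = 4 each, edgeR). It rose 1.49-fold at 2.26 µM over 1 µM (log2 0.58 ± 0.14, adjusted p = 0.00352). In the combination it fell to 0.479 of the level at 2.26 µM (log2 -1.06 ± 0.15, adjusted p = 1.85e-06). The labels give no dose for the combination, so that comparison, here and for every gene below, may differ in Dyngo-4a dose as well as in prexasertib. Dose and prexasertib cannot be told apart in it. At 1 µM against DMSO the difference was 0.21 ± 0.15, in prexasertib against DMSO -0.20 ± 0.15 and in the combination against DMSO -0.28 ± 0.16 on the log2 scale, none of which passed the test, with adjusted p of 0.811, 0.9998 and 0.341. Within replicates 1 and 3 the rise over 1 µM was 0.44 and did not pass (adjusted p = 0.149), and within replicates 2 and 4 it was 0.72 (adjusted p = 0.0166). Here, as for every gene below, a bulk library cannot tell fewer cells of a type from less RNA per cell, and several of these comparisons share the DMSO or the 2.26 µM libraries and are not independent of each other.

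**Figure D1:**
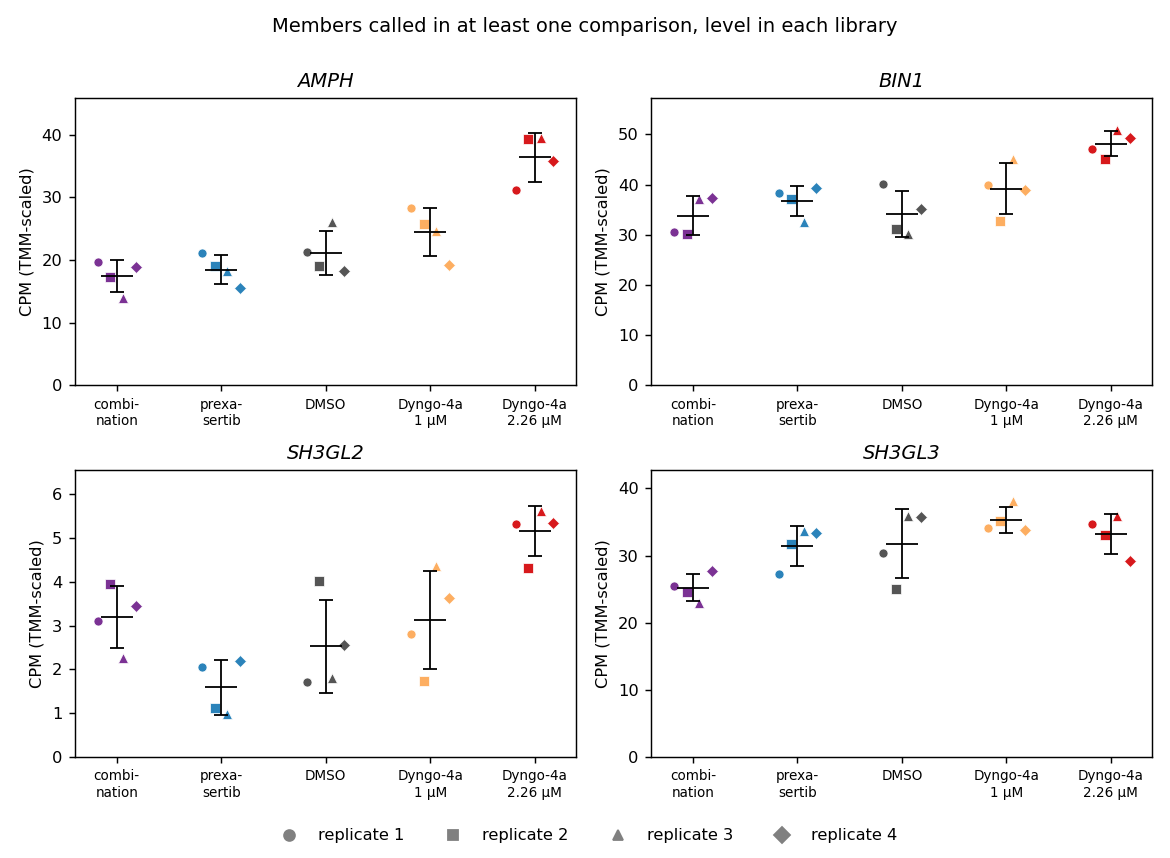
Level in CPM (TMM-scaled, axis from 0) of AMPH, BIN1, SH3GL2 and SH3GL3 in each of the 20 libraries by group, with the marker shape giving the replicate and the black lines the group mean ± SD (n = 4). The 4 libraries at 2.26 µM Dyngo-4a sit above all others for AMPH (31.2 to 39.5 CPM) and BIN1 (45.2 to 51.0 CPM), and the 4 combination libraries sit lowest on average for SH3GL3 (22.9 to 27.7 CPM).

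BIN1 encodes the second, widely expressed amphiphysin, known also as a MYC-binding protein and for shaping the transverse tubules of muscle, and lies at chr2:127048027-127107355 on the minus strand. BIN1 measured 47.1, 45.2, 51.0 and 49.3 CPM with 2.26 µM Dyngo-4a, against 40.2, 31.1, 30.2 and 35.1 CPM with DMSO. At 1 µM it measured 39.9, 32.8, 45.1 and 38.9 CPM. The combination gave 30.6, 30.2, 37.2 and 37.4 CPM, and prexasertib alone gave 38.3, 37.1, 32.5 and 39.3 CPM. As for AMPH, the 4 libraries at 2.26 µM were above the other 16, though its lowest, at 45.2 CPM, was close to the highest at 1 µM, at 45.1 CPM. The means followed the order 2.26 µM, 1 µM, prexasertib, DMSO and combination, and the last 4 overlapped.

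BIN1 rose 1.41-fold at 2.26 µM over DMSO (log2 0.49 ± 0.12, 95% interval 0.25 to 0.74, adjusted p = 0.00209). It fell to 0.702 of the 2.26 µM level in the combination (log2 -0.51 ± 0.12, adjusted p = 0.00202), a call that did not pass within replicates 2 and 4 alone (-0.48, adjusted p = 0.065). Between 2.26 µM and 1 µM the difference of 0.30 ± 0.12 did not pass (adjusted p = 0.0664). In a fit with the replicate number as a block it did (adjusted p = 0.0252). AMPH made up 43.0% ± 2.81 of the counts of both amphiphysin genes at 2.26 µM, 38.5% ± 5.08 at 1 µM, 34.1% ± 5.18 in the combination, 33.4% ± 3.53 with prexasertib and 38.3% ± 5.56 with DMSO (SD, n = 4 each), so that the share at 2.26 µM was within the spread of DMSO while the levels of both genes were above it.

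**Figure D2:**
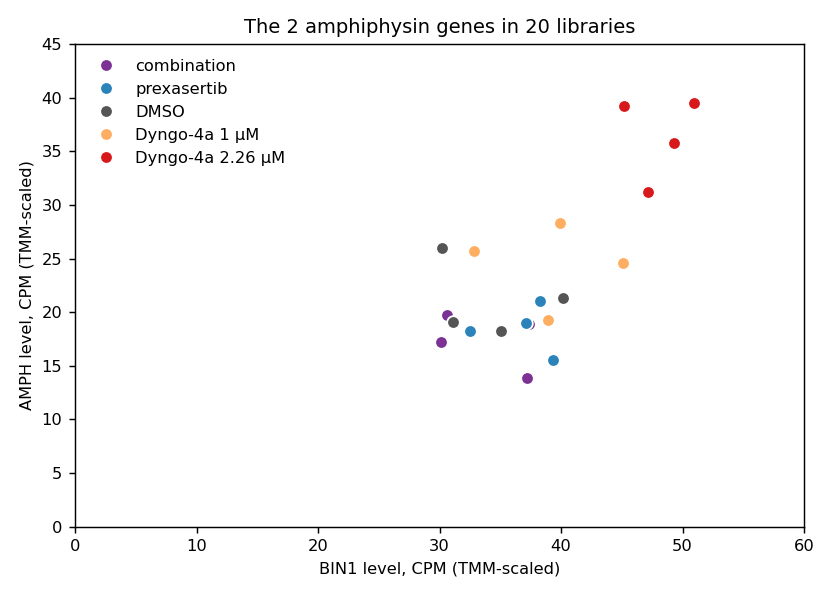
AMPH level against BIN1 level in CPM (TMM-scaled, both axes from 0), 1 point per library, coloured by group. The 4 libraries at 2.26 µM Dyngo-4a form the upper right corner, and the 16 others overlap below 30 CPM of AMPH.

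Over the 20 libraries the log levels of AMPH and BIN1 had a Pearson's r of 0.638, a description only, since libraries of a group share their treatment. SH3GL2 followed both amphiphysin genes less closely, with r of 0.514 for AMPH and 0.530 for BIN1. The tested genes whose levels followed AMPH most closely over these 20 libraries were PRKAA2 (r = 0.933), SYN2 (0.911) and TMEM245 (0.897). For BIN1 they were DENND1B (0.869), TMEM179 (0.845) and RBFOX3 (0.841).

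Among the endophilin A genes, which encode the proteins that recruit synaptojanin and dynamin, SH3GL2 was higher at 2.26 µM Dyngo-4a than with DMSO and SH3GL3 was lower in the combination than at either Dyngo-4a dose, but not past the test against DMSO or prexasertib. SH3GL1 did not pass in the fit of all 20 libraries by group, and passed under some alternatives, the replicate number as a block among them. SH3GL2, the brain-enriched member, lies at chr9:17579082-17797129 on the plus strand and was the lowest tested gene of the set, with 5 to 31 counts a library and 326 in all. SH3GL2 measured 5.32, 4.32, 5.62 and 5.35 CPM with 2.26 µM Dyngo-4a, against 1.71, 4.01, 1.81 and 2.56 CPM with DMSO. At 1 µM it measured 2.81, 1.74, 4.36 and 3.63 CPM. The combination gave 3.11, 3.96, 2.27 and 3.44 CPM, and prexasertib alone gave 2.05, 1.12, 0.991 and 2.19 CPM. The 2.26 µM libraries lay above those of DMSO, the combination and prexasertib and met only the range at 1 µM. The means followed the order 2.26 µM, combination, 1 µM, DMSO and prexasertib, and the last 4 overlapped their neighbours. The combination lay above prexasertib throughout, a pair of groups whose ranges were apart for 9.86% of all tested genes.

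SH3GL2 rose 2.07-fold at 2.26 µM over DMSO (log2 1.05 ± 0.35, 95% interval 0.34 to 1.76, adjusted p = 0.0252). The call rested on few counts. It was lost when DMSO replicate 1 (log2 0.91, adjusted p = 0.0823), DMSO replicate 3 (0.93, adjusted p = 0.078) or 2.26 µM replicate 3 (1.01, adjusted p = 0.0553) was left out, and the difference was 1.63 within replicates 1 and 3 (adjusted p = 0.0266) and 0.58 within replicates 2 and 4 (adjusted p = 0.482). The combination against prexasertib gave 1.00 ± 0.39 (adjusted p = 0.160), the combination against 2.26 µM -0.67 ± 0.34 (adjusted p = 0.167) and 2.26 µM against 1 µM 0.73 ± 0.34 (adjusted p = 0.131), none of which passed. The genes whose levels followed SH3GL2 most closely were P3H2 (r = 0.873), DPF3 (0.819) and ADPRM (0.819), over 20 libraries.

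SH3GL3, known from brain and testis, lies at chr15:83447228-83618743 on the plus strand and had a different order of groups. SH3GL3 measured 25.5, 24.6, 22.9 and 27.7 CPM in the combination, against 34.7, 33.1, 35.9 and 29.2 CPM at 2.26 µM. It measured 34.1, 35.2, 38.1 and 33.8 CPM at 1 µM. Prexasertib alone gave 27.2, 31.7, 33.7 and 33.4 CPM, and DMSO gave 30.4, 25.1, 35.9 and 35.7 CPM. The combination libraries lay below every library of either Dyngo-4a dose but overlapped DMSO and prexasertib, and the 1 µM libraries lay above those of prexasertib. Between the combination and 1 µM, ranges were apart for 9.09% of all tested genes, and between 1 µM and prexasertib for 6.1%. From high to low the means followed the order 1 µM, 2.26 µM, DMSO, prexasertib and combination, and no neighbours in that order had separate ranges.

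SH3GL3 fell in the combination to 0.716 of its level at 1 µM (log2 -0.48 ± 0.13, adjusted p = 0.0193) and to 0.760 of its level at 2.26 µM (log2 -0.40 ± 0.13, adjusted p = 0.0226). Against 1 µM the call was lost without 1 µM replicate 2 (-0.48, adjusted p = 0.0504) or 3 (-0.44, adjusted p = 0.0738) and without combination replicate 2 (-0.46, adjusted p = 0.0596) or 3 (-0.44, adjusted p = 0.0825), and it did not pass within replicates 1 and 3 (-0.56, adjusted p = 0.0707) or 2 and 4 (-0.40, adjusted p = 0.512). Against 2.26 µM it was lost without 2.26 µM replicate 1 (-0.38, adjusted p = 0.0533) or 3 (-0.36, adjusted p = 0.0679) and without combination replicate 2 (-0.38, adjusted p = 0.0535) or 3 (-0.35, adjusted p = 0.0721), and it did not pass within replicates 2 and 4 (-0.24, adjusted p = 0.450). Differences of the combination from DMSO (-0.34 ± 0.13, adjusted p = 0.1104) and from prexasertib (-0.32 ± 0.13, adjusted p = 0.176) had the same sign and did not pass, although the first passed without DMSO replicate 2 (-0.43, adjusted p = 0.0457). SH3GL3 was followed most closely by E2F2 (r = 0.828), NT5DC3 (0.790) and MCM10 (0.780), the last of which encodes a protein of DNA replication.

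SH3GL1, the widely expressed endophilin A (chr19:4360370-4400547, minus strand), had the most counts of the 3 A genes, 7152 in all. It averaged 77.3 ± 8.61 CPM at 2.26 µM, 63.0 ± 6.79 CPM at 1 µM, 63.6 ± 2.94 CPM in the combination, 71.6 ± 7.88 CPM with prexasertib and 63.8 ± 9.80 CPM with DMSO (SD, n = 4 each). All groups overlapped. The difference of 0.27 ± 0.11 between 2.26 µM and DMSO did not pass (adjusted p = 0.0663), but it passed without DMSO replicate 4 (adjusted p = 0.013) or without 2.26 µM replicate 2 (adjusted p = 0.0347). Within replicates 1 and 3 it was 0.54 (adjusted p = 0.00199), while replicates 2 and 4 gave 0.01 (adjusted p = 0.966). With the replicate block, SH3GL1 passed at 2.26 µM over 1 µM (0.30, adjusted p = 0.0144) and in the combination against 2.26 µM (-0.28, adjusted p = 0.0195), where it had not passed without the block (0.29 ± 0.11, adjusted p = 0.0551, and -0.28 ± 0.11, adjusted p = 0.0672). SH3GL1 overlaps an antisense gene, AC007292.1, by 194 exon bases, and that gene had 278 counts. The sources used here do not say whether counting used the strand, so reads of both cannot be told apart. Of the counts of the 3 A genes, SH3GL2 made up 4.45% ± 0.338 at 2.26 µM, 3.13% ± 1.20 at 1 µM, 3.47% ± 0.785 in the combination, 1.54% ± 0.644 with prexasertib and 2.58% ± 1.12 with DMSO.

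SH3GLB1 encodes endophilin B, known for intracellular membranes and autophagy rather than for the synapse (chr1:86704570-86748184, plus strand). It had the most counts of the whole set, 9086, and a mean above 82.7% of the tested genes. It averaged 93.0 ± 14.2 CPM at 2.26 µM, 79.5 ± 8.20 CPM at 1 µM, 82.9 ± 5.77 CPM in the combination, 89.9 ± 6.44 CPM with prexasertib and 87.3 ± 6.01 CPM with DMSO. No pair of groups was separate. Its difference between 2.26 µM and DMSO was 0.09 ± 0.10, with a 95% interval of -0.12 to 0.30 (adjusted p = 0.552).

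The syndapins bind dynamin and the actin regulator N-WASP and differ by tissue, PACSIN1 being known from neurons, PACSIN2 from most tissues and PACSIN3 from muscle. PACSIN2 (chr22:42835412-43015145, minus strand) averaged 45.9 ± 5.28 CPM at 2.26 µM, 41.9 ± 5.31 CPM at 1 µM, 40.9 ± 5.36 CPM in the combination, 37.7 ± 3.44 CPM with prexasertib and 39.6 ± 1.71 CPM with DMSO. PACSIN3 (chr11:47177525-47186443, minus strand) averaged 13.4 ± 3.19, 13.1 ± 1.91, 15.3 ± 1.58, 13.6 ± 3.14 and 16.7 ± 2.56 CPM in the same groups. All groups overlapped for both genes, and PACSIN3 was the only tested gene of the set with a negative difference between 2.26 µM and DMSO (-0.32 ± 0.19, 95% interval -0.70 to 0.05, adjusted p = 0.209). PACSIN2 gave 0.21 ± 0.12 there (adjusted p = 0.196). PACSIN2 shares 155 exon bases on the same strand with ARFGAP3, which had 3440 counts against 4330 for PACSIN2, and the sources used here do not say how shared reads were assigned.

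PACSIN1 (chr6:34466061-34535231, plus strand) had 112 counts in all and was not tested. It measured 2.44, 2.41, 1.13 and 1.63 CPM in the combination, against 0, 1.12, 0.198 and 0.627 CPM with prexasertib and 0.952, 0.752, 0.202 and 1.28 CPM with DMSO. The Dyngo-4a libraries held 1.58, 1.44, 0.907 and 0.923 CPM at 2.26 µM, against 1.51, 1.42, 0.218 and 0.363 CPM at 1 µM. The combination libraries, at 5 to 14 counts each, lay just above those of prexasertib, at 0 to 6 counts, and overlapped all other groups. The library without a count allows up to 0.616 CPM, and the filter left the gene without a test. In a fit with no filter on low counts, the combination against prexasertib gave 1.87 ± 0.67 and did not pass (adjusted p = 0.164), and the combination against DMSO gave 1.19 ± 0.64 (adjusted p = 0.429).

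SNX9 joins a BAR domain to a PX domain that binds phosphoinositides, and works with dynamin and N-WASP at late coated pits (chr6:157700387-157945077, plus strand). SNX9 measured 32.5, 30.8, 36.1 and 26.4 CPM at 2.26 µM, against 25.1, 24.6, 34.9 and 25.6 CPM with DMSO. Its difference there was 0.19 ± 0.14, with a 95% interval of -0.10 to 0.48 (adjusted p = 0.357). DMSO replicate 3 stood apart from the other DMSO libraries, and all groups overlapped. It averaged 24.1 ± 2.90 CPM at 1 µM, 26.2 ± 2.46 CPM in the combination and 28.5 ± 5.08 CPM with prexasertib.

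**Figure D3:**
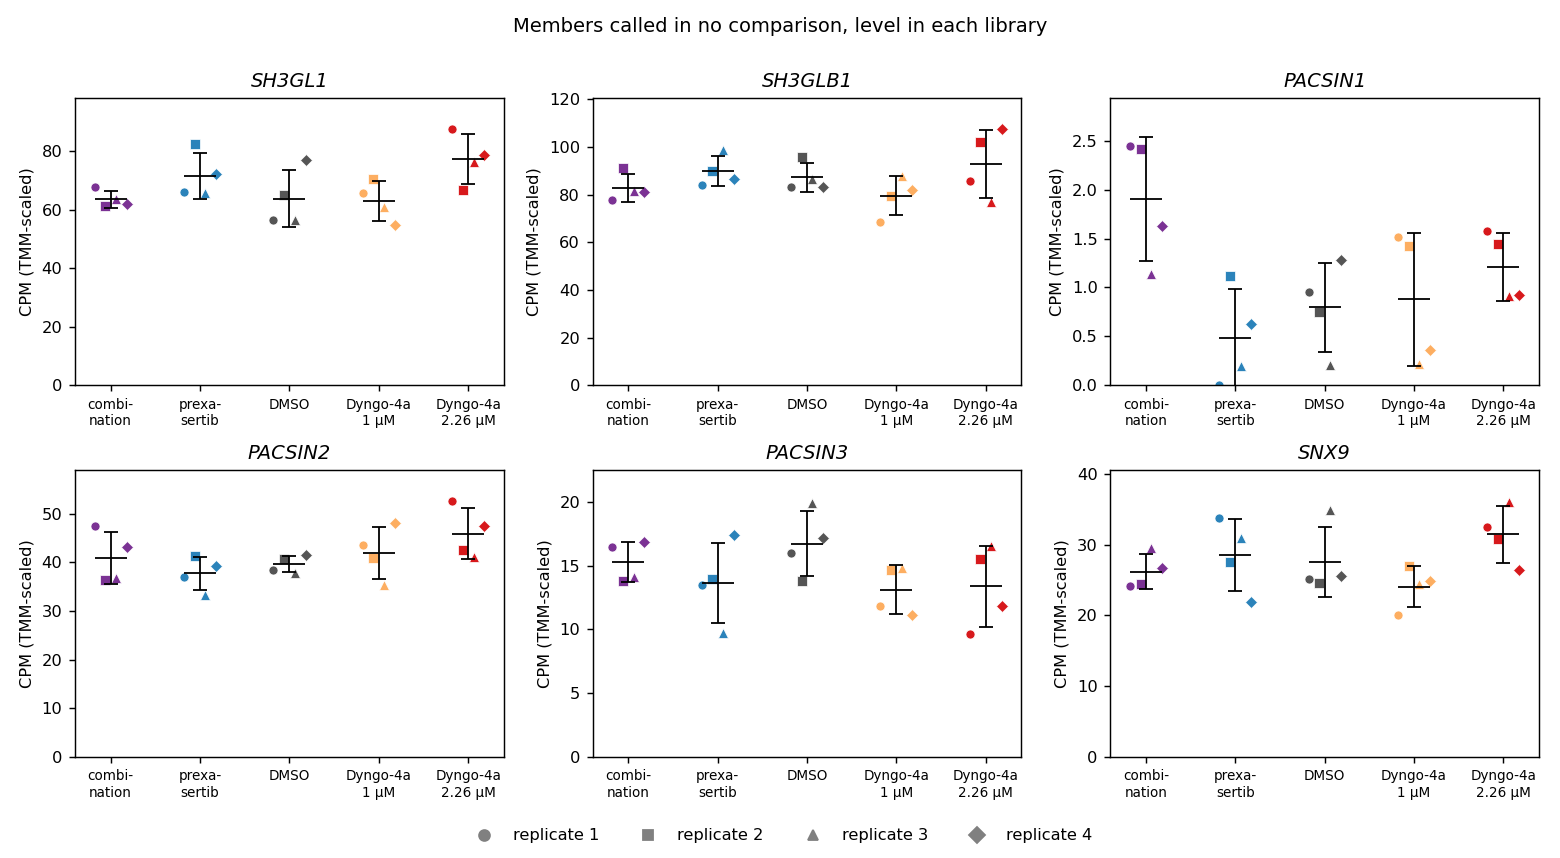
Level in CPM (TMM-scaled, each axis from 0) of SH3GL1, SH3GLB1, PACSIN1, PACSIN2, PACSIN3 and SNX9 in each of the 20 libraries by group, with the marker shape giving the replicate and the black lines the group mean ± SD (n = 4). Group ranges overlap in every panel except PACSIN1, where the combination (1.13 to 2.44 CPM) lies just above prexasertib (0 to 1.12 CPM).

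Counted over the set, 3 of the 9 tested genes (AMPH, BIN1 and SH3GL2) rose and 0 fell at 2.26 µM against DMSO. There 25.2% of all tested genes passed the test, with 12.5% of all tested genes higher and 12.7% lower. The count at an unadjusted p under 0.05 was 4, beside 4989 of all 13729 tested genes, and DESeq2 and limma-voom each called 3. The median log2 difference of the 9 was 0.21, against 0.00 over all tested genes, and 8 of 9 were positive. Against 1 µM, 1 of 9 (AMPH) rose at 2.26 µM, where 20.2% of all genes passed and 10.1% were higher, with a median of 0.29 against -0.01. In the fit with the replicate block, which read as paired here, 5 rose at 2.26 µM over 1 µM, where 14.1% of all tested genes rose in that fit. The block added BIN1, SH3GL1, SNX9 (adjusted p = 0.0233) and SH3GLB1 (adjusted p = 0.0382).

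In the combination against 2.26 µM, 3 of 9 (AMPH, BIN1 and SH3GL3) fell and 0 rose, where 20.5% of all genes passed and 10.1% were lower, with a median of -0.28 against 0.01. The block, under which 14.3% of all genes were lower, added SH3GL1. As the combination has no labelled dose, a lower Dyngo-4a dose and prexasertib cannot be told apart in this comparison. Against prexasertib, the combination gave -0.08 ± 0.16 for AMPH and -0.12 ± 0.12 for BIN1 (adjusted p = 0.869 and 0.691, edgeR). In the combination against 1 µM, 1 of 9 (SH3GL3) fell, where 3.85% of all genes passed and 1.14% were lower. The block, under which 3.93% of all genes were lower, added AMPH there (-0.47, adjusted p = 0.0239), against -0.48 ± 0.15 and adjusted p = 0.0709 without it.

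**Figure D4:**
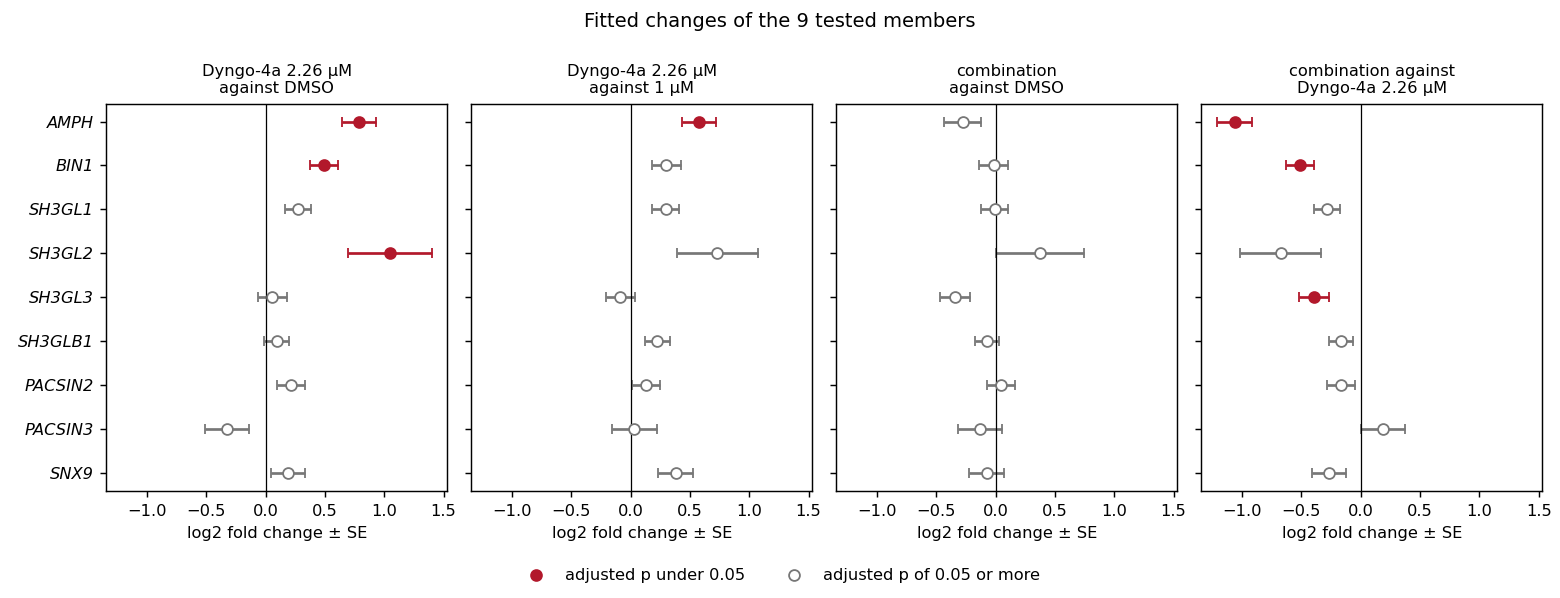
Log2 fold change with its SE (bars) of the 9 tested genes in 4 comparisons, each panel naming the group on top first, with filled red points for an adjusted p under 0.05 (edgeR). Points lie mostly right of 0 where 2.26 µM Dyngo-4a is on top and mostly left of 0 where the combination is set against it, with AMPH farthest among the genes with many counts (0.79, 0.58 and -1.06).

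The other comparisons called no gene of the set by edgeR, DESeq2 or limma-voom. At 1 µM against DMSO the smallest adjusted p was 0.691, and 0.262% of all genes were called. There 0 of 9 had an unadjusted p under 0.05, beside 1039 of all 13729 tested genes. AMPH and BIN1 gave 0.21 ± 0.15 and 0.19 ± 0.12. Prexasertib against DMSO called 0% of all genes, with 0 of 9 at an unadjusted p under 0.05, beside 518 of the 13729 tested genes. The combination against DMSO called 6.3% of all genes, and 1 of 9 (SH3GL3) had an unadjusted p under 0.05, beside 2680 of all 13729. The combination against prexasertib called 3.44%, and 2 of 9 (SH3GL2 and SH3GL3) had an unadjusted p under 0.05, beside 2153 of all 13729. A term for non-additive action, the combination minus prexasertib set against 1 µM Dyngo-4a minus DMSO, called 0.284% of all genes, and its smallest adjusted p in the set was 0.518, for SH3GL3 (-0.46 ± 0.18). That term assumes that the combination held 1 µM Dyngo-4a, which the labels do not state.

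Signs of library composition moved with the 2.26 µM group. MALAT1, a nuclear RNA, took 2.96% ± 0.157 of counts at 2.26 µM, 1.56% ± 0.434 at 1 µM, 2.33% ± 0.538 in the combination, 1.42% ± 0.357 with prexasertib and 1.35% ± 0.417 with DMSO (SD, n = 4 each). The 6 mesenchymal markers summed to 17.5 to 33.9 CPM at 2.26 µM, against 34.3 to 41.3 CPM with DMSO, and PRRX1 was at 0 throughout. Their part in the amphiphysin and endophilin results was not tested.

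Genes that work beside this set were counted from lists of the wider BAR families and of their binding partners. Of 22 tested other BAR and PX-BAR genes, 5 rose and 0 fell at 2.26 µM against DMSO, with a median of 0.11, where 12.5% of all tested genes rose and 12.7% fell. SNX18, a close relative of SNX9, averaged 37.6 ± 6.72 CPM at 2.26 µM and 23.9 ± 3.39 CPM with DMSO (log2 0.66 ± 0.14, adjusted p = 0.000649). ARFIP2, which binds small GTPases at the Golgi, averaged 30.7 ± 3.61 CPM and 21.5 ± 2.20 CPM in these groups (0.51 ± 0.15, adjusted p = 0.0127). SNX18 fell in the combination against 2.26 µM (-0.51 ± 0.14, adjusted p = 0.00887), as did DNMBP, a BAR protein that binds dynamin (-0.86 ± 0.22, adjusted p = 0.00414). There 5 of the 22 fell and 0 rose, where 20.5% of all tested genes passed and 10.1% were lower. SNX5, a retromer-associated sorting nexin, was among those that fell (-0.45 ± 0.10, adjusted p = 0.000753). SNX5 was also the 1 gene of the 22 to fall in the combination against DMSO (-0.43 ± 0.10, adjusted p = 0.00377), where 6.3% of all tested genes passed.

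Of 12 tested F-BAR genes outside the set, FNBP1 alone passed at 2.26 µM against DMSO, where 25.2% of all tested genes passed. FNBP1, which links dynamin and N-WASP to membranes, averaged 102 ± 9.45 CPM at 2.26 µM and 74.4 ± 6.63 CPM with DMSO (0.46 ± 0.10, adjusted p = 0.000994). Of 3 tested I-BAR genes, whose domain curves membrane outward, 0 passed there, and BAIAP2 rose in the combination over 2.26 µM (34.0 ± 4.22 CPM and 22.6 ± 2.21 CPM, log2 0.59 ± 0.14, adjusted p = 0.00198).

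Of 11 binding partners, all tested, 3 rose and 1 fell at 2.26 µM against DMSO, beside 25.2% of all tested genes called in either direction. The gene that fell was CLTC, the clathrin heavy chain, at 353 ± 16.3 CPM against 515 ± 30.2 CPM with DMSO (-0.54 ± 0.08, adjusted p = 4.57e-06). WASL, the gene of N-WASP, averaged 78.8 ± 6.69 CPM and 56.2 ± 6.72 CPM in these groups (0.49 ± 0.10, adjusted p = 0.000363), and ITSN2, the scaffold intersectin, 21.2 ± 1.51 CPM and 13.1 ± 1.37 CPM (0.70 ± 0.18, adjusted p = 0.00331). In the combination against 2.26 µM, WASL fell (-0.40 ± 0.10, adjusted p = 0.00354) and CLTC rose (0.28 ± 0.08, adjusted p = 0.0139). The dynamin genes did not pass at 2.26 µM against DMSO. DNM2, the widely expressed dynamin, averaged 68.8 ± 1.42 CPM at 2.26 µM, 53.9 ± 0.451 CPM at 1 µM and 58.1 ± 5.71 CPM with DMSO, passing against 1 µM (0.35 ± 0.10, adjusted p = 0.0133) and not against DMSO (0.24 ± 0.10, adjusted p = 0.0803). DNM1, the neuronal dynamin, averaged 20.3 ± 2.48 CPM at 2.26 µM and 19.5 ± 5.53 CPM with DMSO, and DNM3 averaged 8.20 ± 2.27 CPM and 6.27 ± 1.06 CPM.

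Further calls of these lists are given with the number of 8 fits, each without 1 library, in which the call held. At 2.26 µM against DMSO they included SYNJ1, the gene of synaptojanin (0.54 ± 0.20, adjusted p = 0.0494, 1 of 8), PICK1, which binds glutamate receptors (0.76 ± 0.24, adjusted p = 0.0177, 6 of 8), and the retromer sorting nexin SNX2 (0.32 ± 0.11, adjusted p = 0.0283, 4 of 8). Of these 8 fits SYNJ1 passed only in that without DMSO replicate 3 (adjusted p = 0.0075), the other 7 fits giving up to 0.171.

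Between 2.26 µM and 1 µM, 5 of the 22 other BAR genes rose, where 10.1% of all tested genes were higher. Among them were SNX18 (0.57 ± 0.14, adjusted p = 0.00329, 8 of 8), ARFIP2 (0.62 ± 0.15, adjusted p = 0.00376, 8 of 8), SNX2 (0.40 ± 0.11, adjusted p = 0.00809, 8 of 8) and SNX6 (0.37 ± 0.12, adjusted p = 0.0273, 4 of 8). FNBP1 rose as well (0.50 ± 0.10, adjusted p = 0.000562, 8 of 8), as did ITSN2 (0.50 ± 0.18, adjusted p = 0.0409, 2 of 8), and CLTC fell (-0.27 ± 0.08, adjusted p = 0.0167, 5 of 8).

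Set against 2.26 µM, the combination was lower for the endosomal adaptor APPL1 (-0.32 ± 0.10, adjusted p = 0.0153, 5 of 8), SNX2 (-0.30 ± 0.11, adjusted p = 0.0491, 2 of 8), FCHSD2 (-0.42 ± 0.13, adjusted p = 0.0177, 6 of 8), FNBP1 (-0.28 ± 0.10, adjusted p = 0.0459, 2 of 8) and DNM2 (-0.30 ± 0.10, adjusted p = 0.0376, 2 of 8). It was higher for FCHO1, an early factor of coated pits (1.04 ± 0.35, adjusted p = 0.0302, 4 of 8). BAIAP2 was also higher in the combination than with DMSO (0.53 ± 0.14, adjusted p = 0.0131, 6 of 8) and than at 1 µM (0.51 ± 0.14, adjusted p = 0.0241, 2 of 8). CLTC was lower in the combination than with DMSO (-0.27 ± 0.08, adjusted p = 0.0429, 1 of 8), and PICK1 was higher than with prexasertib (0.87 ± 0.25, adjusted p = 0.0457, 3 of 8).

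Within pairs of replicates some of these neighbouring calls were lost. At 2.26 µM against DMSO, ARFIP2 did not pass within replicates 2 and 4 (0.39, adjusted p = 0.226) nor ITSN2 within replicates 1 and 3 (0.61, adjusted p = 0.0618). In the combination against 2.26 µM, SNX18 (-0.34, adjusted p = 0.268), DNMBP (-0.64, adjusted p = 0.155) and WASL (-0.32, adjusted p = 0.122) did not pass within replicates 1 and 3, nor BAIAP2 (0.50, adjusted p = 0.121) and CLTC (0.24, adjusted p = 0.163) within replicates 2 and 4. SNX5 in the combination against DMSO did not pass within replicates 2 and 4 (-0.41, adjusted p = 0.143). DNM2 at 2.26 µM against 1 µM passed within neither pair (0.38, adjusted p = 0.0572, and 0.32, adjusted p = 0.164).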

How the data were processed

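The authors deposited 1 table of raw counts per gene for 20 libraries, whole numbers that were not normalised. Per the labels' protocols the libraries were made with a 3′ mRNA kit with molecular barcodes and read single-end. The submitters' processing notes name FastQC 0.11.7, STAR 2.7.2b, edgeR 3.36.0, limma 3.50.3 and the build GRCh38. The sources used here do not name the counting tool, its strand setting or the handling of barcodes.

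Groups came from the labels. Low genes were dropped with filterByExpr of edgeR, set to a count of 10 and a total of 15, and 99.6% to 99.8% of each library's counts remained. TMM factors ran from 0.968 to 1.03. All 20 libraries entered 1 robust quasi-likelihood fit with group as the term (R 4.3.3, edgeR 4.0.16, residual df 15, common biological variation 12.5%), with Benjamini-Hochberg adjustment over 13729 genes and a threshold of 0.05. The procedure was also run on simulated counts with few genes changed and without the split of replicates seen here, and no result rests on that run. No 2 libraries of a group agreed within sampling noise (chi-square per degree of freedom 3.16 to 9.19). Of the 58787 identifiers, 58515 were in GENCODE 29, the source of coordinates, and 58434 had a symbol, and promoters are RefSeq's. The text names all 10 genes, the dynamins, per comparison up to 5 called genes of each neighbouring list by size of change, and the 3 genes most like each called member by Pearson's r. The genes and the lists were chosen with earlier results of these data known.

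Alternatives were DESeq2 1.42.0, limma-voom (limma 3.58.1), other scalings and filters, fits of only the groups compared, each library left out, each pair of replicates alone, and the replicate number as a block. Same-numbered libraries deviated together from their group means, with every correlation over 0.1, for 6 of 9 comparisons (0.110 to 0.319) and were read as paired there from the data alone. They did not for 2.26 µM and for the combination against DMSO (from 0.0271 and 0.0274) or for the non-additive term. Some results for markers and neighbouring genes are not reported here.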

Additional observations from a re-analysis of the deposited data

Results flagged for a closer look

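SNX9 in DMSO replicate 3 measured 34.9 CPM, far from the next DMSO library at 25.6 CPM and the lowest at 24.6 CPM. This was 1 of 50 groups of 4 libraries examined over the 10 genes. The threshold used, Dixon's 95% critical value, is passed by about 1 in 20 groups by chance alone. The other DMSO libraries lay below the mean of SNX9 at 2.26 µM Dyngo-4a, 31.5 CPM.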

How the results depend on the processing

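The calls of AMPH and BIN1 at 2.26 µM against DMSO kept their direction and passed under every alternative run, with AMPH at 0.72 to 0.90 and BIN1 at 0.44 to 0.58 when 1 library was left out. Counts of the 9 genes that passed at 2.26 µM against 1 µM were 1 in the fit reported, 2 by limma-voom, 3 with only the groups compared, 2 within replicates 1 and 3, 5 with the replicate block, and 1 to 3 with 1 library left out. In the combination against 1 µM the count was 1, and it was 2 by library sizes alone, 2 with the block, 0 within either pair of replicates and 0 to 2 with 1 library left out. It was 1 within replicates 2 and 4 for the combination against 2.26 µM, and 0 to 1 with 1 library left out for the combination against DMSO. The block moved no other of these counts by over 1.5 times, and gave 4 at 2.26 µM against DMSO, where numbers were not read as paired. Differences near 0 turned for SH3GL3 at 2.26 µM against DMSO (-0.0353 to 0.13 with 1 library left out, negative without DMSO replicate 2) and for SH3GLB1 (-0.0579 within replicates 1 and 3); the cause was not tested. Over all genes the block gave 260 calls and 36 without it for 1 µM against DMSO, 23 and 0 for prexasertib against DMSO, 1976 and 865, 1374 and 472, and 1149 and 528 for the combination against DMSO, prexasertib and 1 µM, and 167 and 39 for the non-additive term. Within replicates 2 and 4 the first count was 4, the counts of the combination were 221, 104 and 143, and the non-additive count was 1. Within replicates 1 and 3 and within 2 and 4, the counts were 2230 and 2221 for 2.26 µM against DMSO (3456 in the fit reported), 1457 and 1588 against 1 µM (2767), and 1622 and 1554 for the combination against 2.26 µM (2816). Leaving out 1 library moved the count to 14 to 30 for 1 µM against DMSO (14 without 1 µM replicate 3, 18 without 1 µM replicate 1, 22 without DMSO replicate 2 or 4), to 0 to 2 for prexasertib against DMSO, and to 309 without combination replicate 1 for the combination against prexasertib. With no filter on low counts there were 62 calls for 1 µM against DMSO, 12 for prexasertib against DMSO and 65 for the non-additive term, and DESeq2 gave 6 and 72 for the last 2. With few counts, SH3GL2 and PACSIN1 limit what can be said of small differences.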
